A study of Rattus norvegicus with 7 samples.

Results

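The p53 response was examined through 9 of its direct target genes, Mdm2, Bax, Bbc3, Gadd45a, Sesn1, Ccng1, Fas, Phlda3 and Trp53inp1, in rat kidney cells given an siRNA against Adamts16. The question was whether changes in proliferation genes in these cells came with a damage or arrest response. The genes were chosen as known p53 targets, and every probe set annotated to 1 of them alone was taken. This gave 13 probe sets for 8 genes, of the 14217 genes named and 31099 probe sets in the table. Of the 13, 11 were among the 18625 brighter probe sets that were tested. Bax had no probe set of its own, since the 1 that measures it is annotated to a further locus as well.

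The cells were NRK-52E, an epithelial line from the normal rat kidney, and each of 7 Affymetrix arrays held the RNA of an independent culture. Adamts16, the gene targeted, encodes a secreted metalloprotease studied in inherited hypertension. Cultures received siRNA 3488 against Adamts16 (2 arrays), siRNA 2600 against Adamts16 (2 arrays) or a scrambled siRNA as control (3 arrays). All were seeded at 20% confluence in medium with 10% serum, lipofected with siRNA at 100 pmol per ml, and harvested 48 h later. Cells without transfection and cells given a DNA-damaging agent were not analysed here. A difference in signal between groups cannot tell a change in RNA per cell from a change in how many cells carried the RNA. With so few arrays every value is imprecise, and p-values measure the spread between these cultures of a single line.

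Values are signals in arbitrary units, already scaled by the authors so that the trimmed mean was 500.1 to 500.2 on each array, with array medians of 126 to 139.6. On the first principal component, 39.2% of the variance, the controls lay at 11.4 to 20.1 with siRNA 2600 replicate 1 (17.7) inside that range, and the siRNA 3488 arrays (-22.3 and -37.2) lay farthest from them. The Adamts16 signal was 12.06 and 40.36 in siRNA 3488 cultures, 21.37 and 2.416 in siRNA 2600 cultures, and 8.68, 7.184 and 18.88 in control cultures, under the level of the filter, so these arrays did not measure its knockdown. Of 8 markers of kidney epithelium, Krt8 and Krt19 passed the filter, Krt19 at a dim 59.05 to 168.3. Krt18 (5.612 to 26.1), Epcam, Cdh16, Pax8 and Cdh2 were under it, and Cdh1, the epithelial cadherin, stayed between 0.394 and 19.3. Of 9 fibroblast markers 5 passed the filter, among them the collagens Col1a1 and Col3a1. The label of an epithelial line thus rests here on Krt8 and a dim Krt19, without Krt18 or E-cadherin.

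p53 is a transcription factor that is kept scarce by the ubiquitin ligase Mdm2 and accumulates after DNA damage, ribosomal stress or oncogene activity. It then binds short elements near its target genes and raises them, which can halt the cell cycle, aid repair or start cell death, and one target, Mdm2, closes a feedback loop by removing p53. In the kidney tubule p53 is known for its induction after toxic or ischaemic injury.

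By their labels the groups differed in the siRNA alone. The antisense strands, 5′ to 3′ without the overhang and with the seed (bases 2 to 8) in capitals, are shown because the pattern of the target genes is read across these 3 treatments, whose seeds all differ.
siRNA 3488: tTTCCGGAgacgtacttct
siRNA 2600: tTGCGCACagaaatatagg
scrambled control: aTTACCGAgcacattggagg

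RefSeq promoter windows of assembly GRCr8, from 250 bases before to 50 after the start of the gene, were at hand for 6 of the genes. Each was searched on both strands for the p53 half-site by its consensus, a sequence of 10 bases that reads the same class of bases on either strand. The windows of Gadd45a, Ccng1 and Sesn1 held a match, shown in capitals within its surroundings on the strand of the gene, at chr4:97486818-97486867 (minus strand), chr10:25685079-25685126 (minus strand) and chr20:46948527-46948576 (plus strand).
Gadd45a: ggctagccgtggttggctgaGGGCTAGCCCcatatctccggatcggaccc
Ccng1: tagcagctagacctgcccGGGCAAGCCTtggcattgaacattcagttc
Sesn1: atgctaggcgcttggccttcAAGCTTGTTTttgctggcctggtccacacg
The match began 48 bases before the start in Gadd45a, 232 before it in Ccng1 and 172 before it in Sesn1. A match occurred in 7.98% of all 33469 such windows. These letters were not in the windows of Mdm2, Fas and Phlda3, and Bax, Bbc3 and Trp53inp1 are named only. Sequence outside the windows was not searched, and whether p53 binds at a match was not tested.

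None of the p53 target genes passed the test in any comparison. With both siRNAs against the scrambled control, 0 of the 11 tested probe sets were called by limma at an adjusted p under 0.05, where 0.145% of all tested probe sets were. With siRNA 3488 alone it was 0 of 11 beside 15.6%, with siRNA 2600 alone 0 of 11 beside 1.03%, and between siRNA 3488 and siRNA 2600 0 of 11 beside 6.01%. At an unadjusted limma p under 0.05 the counts were 0 of 11 (17.8% of all) with both siRNAs, 1 (31.9%) with siRNA 3488, 2 (15.2%) with siRNA 2600 and 3 (23.7%) between the siRNAs. Arrays of the compared groups did not overlap for 0 of 11 probe sets (17.7% of all) with both siRNAs, 2 (50.3%) with siRNA 3488 and 3 (34.0%) with siRNA 2600.

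The changes were small in both directions. The median log2 change of the 11 probe sets was 0.02 with both siRNAs, 0.02 with siRNA 3488, 0.03 with siRNA 2600 and -0.04 between the siRNAs. Over all tested probe sets it was -0.05, -0.06, -0.02 and -0.02 in the same order. The median size of change, without its sign, was 0.12 with both siRNAs, beside 0.14 over all tested probe sets. For siRNA 3488 it was 0.12 beside 0.20, for siRNA 2600 it was 0.10 beside 0.13, and between the siRNAs 0.23 beside 0.18. With both siRNAs the 95% intervals lay within 1.5-fold either way for 10 of 11 probe sets and within 2-fold for all 11. The upper ends of these intervals ran from 1.06-fold to 1.67-fold. With siRNA 3488 they ran from 0.992-fold to 1.88-fold and with siRNA 2600 from 0.96-fold to 1.77-fold, so that rises of up to these sizes lay within the intervals. Adjusted limma p-values were 0.404 to 0.928 with both siRNAs, 0.142 to 0.9 with siRNA 3488, 0.228 to 0.998 with siRNA 2600 and 0.0884 to 0.914 between the siRNAs.

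**Figure D1:**
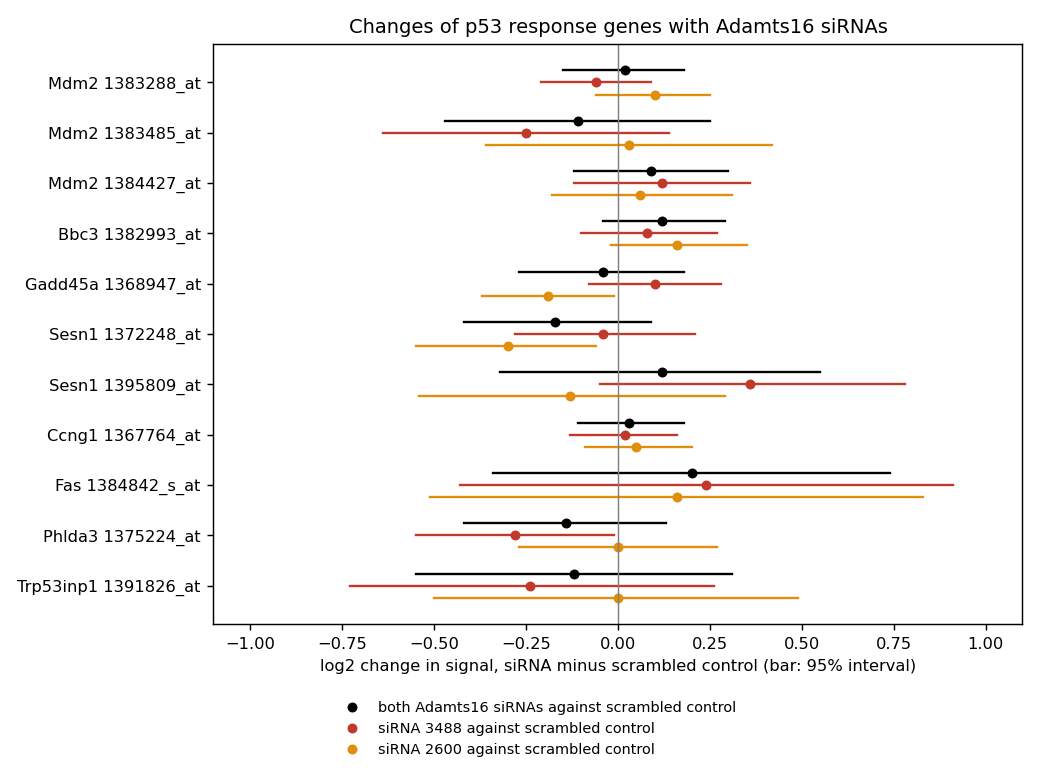
Log2 change in signal (horizontal axis) of each tested probe set of the p53 target genes, for both siRNAs, siRNA 3488 and siRNA 2600 against the scrambled control; points are limma estimates and bars 95% intervals. The estimates lie between -0.30 and 0.36, and none passed the test at an adjusted p under 0.05.

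Mdm2, the ligase that removes p53 and the classic readout of p53 activity, was measured by 3 probe sets. The signal of 1383288_at was 1834 and 1851 in siRNA 3488 cultures, 1998 and 2115 in siRNA 2600 cultures, and 2031, 1900 and 1847 in scrambled control cultures. The siRNA 2600 mean was the highest and the siRNA 3488 mean the lowest, and each group of siRNA arrays overlapped the controls. With both siRNAs Mdm2 averaged 1950 ± 133 (SD, n = 4), against 1926 ± 94.4 (SD, n = 3) in the controls, a log2 change of 0.02 ± 0.07 (SE, 95% interval -0.15 to 0.18, limma adjusted p = 0.928). The log2 changes were -0.06 ± 0.07 with siRNA 3488 and 0.10 ± 0.07 with siRNA 2600. The upper end of the interval with both siRNAs is 1.13-fold.

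The other Mdm2 probe sets varied more between replicates. For 1384427_at the signals were 1689 and 1975 for siRNA 3488, 1549 and 1990 for siRNA 2600, and 1672, 1762 and 1608 in the controls, and the log2 change with both siRNAs was 0.09 ± 0.10 (limma adjusted p = 0.638). For 1383485_at they were 444.9 and 723.5 for siRNA 3488, 619.6 and 763.9 for siRNA 2600, and 671, 697.3 and 653.9 in the controls, with a log2 change of -0.11 ± 0.16 (limma adjusted p = 0.751). In both, the replicates of each siRNA lay on either side of the control mean or, for siRNA 3488 in 1384427_at, both above it. The 3 probe sets correlated with each other at a Pearson r of 0.17 to 0.50 over the 7 arrays, a description of arrays that share their scaling.

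Ccng1, which encodes cyclin G1, a p53 target that recruits a phosphatase to Mdm2, had the smallest standard error of the 11 probe sets with both siRNAs. Its signal was 3275 and 3566 in siRNA 3488 cultures, 3615 and 3402 in siRNA 2600 cultures, and 3430, 3443 and 3272 in scrambled control cultures, so that the 3 groups overlapped. It averaged 3464 ± 156 (SD, n = 4) with both siRNAs and 3382 ± 95.2 (SD, n = 3) in the controls. The log2 change was 0.03 ± 0.06 (95% interval -0.11 to 0.18, limma adjusted p = 0.813), with 0.02 ± 0.07 for siRNA 3488 and 0.05 ± 0.07 for siRNA 2600.

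**Figure D2:**
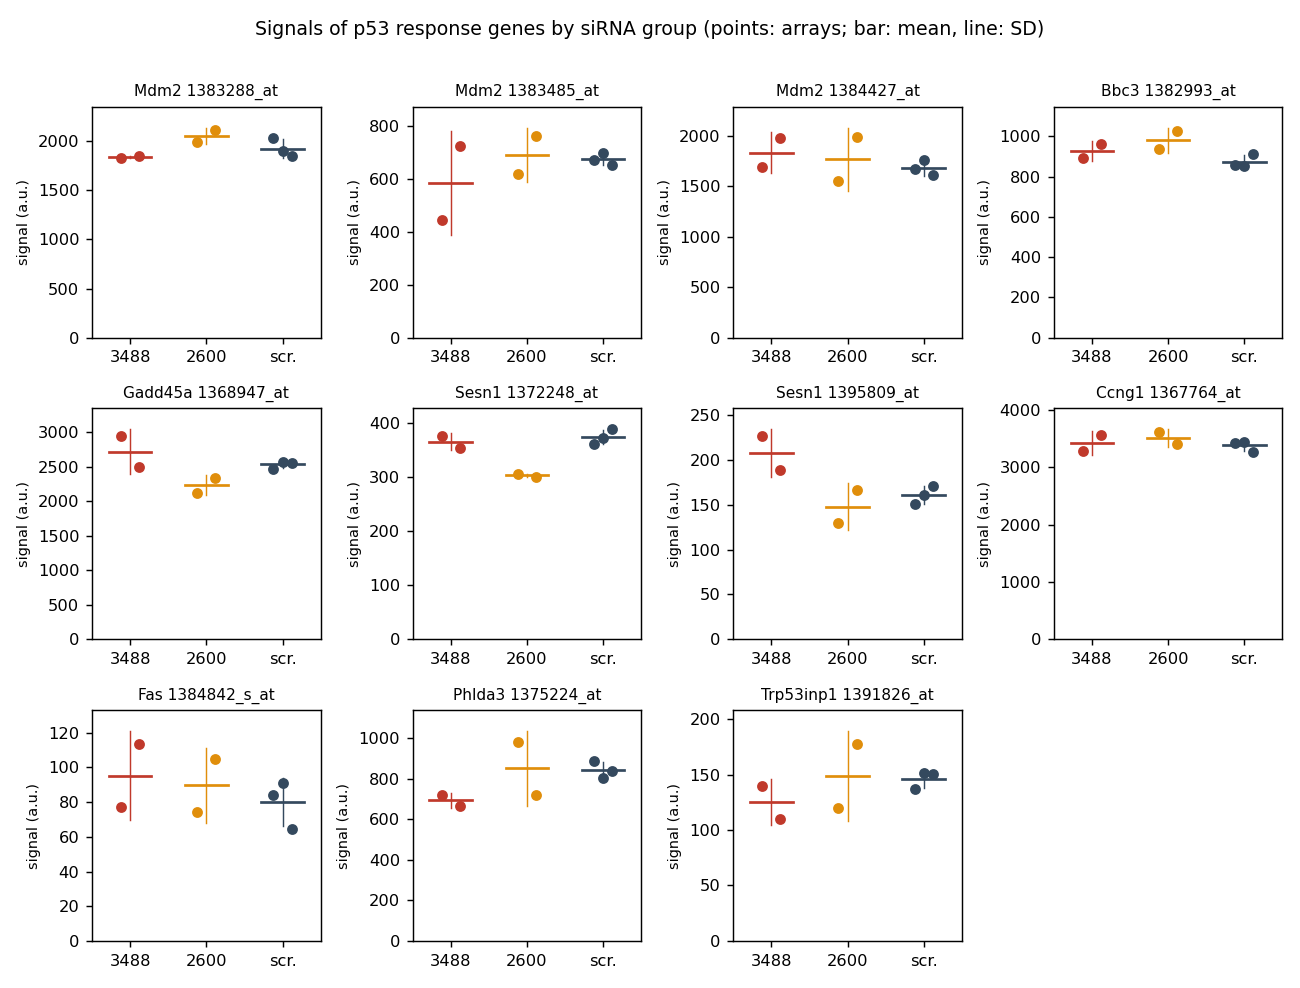
Signal in arbitrary units (vertical axes, from 0) of the 11 tested probe sets on each array, by group: siRNA 3488, siRNA 2600 and scrambled control; points are arrays, horizontal bars means and vertical lines SD. Ccng1 sits between 3272 and 3615 on all 7 arrays, and the Gadd45a and Sesn1 1372248_at arrays of siRNA 2600 lie below those of both other groups.

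Gadd45a and Sesn1, which act in repair and stress tolerance, had higher means with siRNA 3488 than with siRNA 2600 in each of their 3 probe sets, without passing the test. Gadd45a encodes a stress protein that takes part in repair and in checkpoint arrest. Its signal was 2945 and 2491 in siRNA 3488 cultures, 2125 and 2330 in siRNA 2600 cultures, and 2473, 2567 and 2556 in scrambled control cultures. Both siRNA 2600 arrays lay below all others, and the siRNA 3488 arrays lay above and within the control range. The log2 change was -0.19 ± 0.08 with siRNA 2600 (limma unadjusted p = 0.0433, adjusted p = 0.309) and 0.10 ± 0.08 with siRNA 3488 (limma adjusted p = 0.444). Between siRNA 3488 and siRNA 2600 it was 0.28 ± 0.09 (95% interval 0.09 to 0.48), with an adjusted limma p of 0.0884, the lowest of the 11 tested probe sets in any of the 4 comparisons. With both siRNAs it was -0.04 ± 0.10 (limma adjusted p = 0.846).

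Sesn1 encodes a sestrin, a p53-induced inhibitor of growth signalling through mTOR. Its probe set 1372248_at read 376.8 and 354.6 for siRNA 3488, 306.1 and 301.1 for siRNA 2600, and 362.3, 373 and 388.8 in the controls. As for Gadd45a, the siRNA 2600 arrays were the lowest and did not overlap the rest, while the siRNA 3488 arrays overlapped the controls. The log2 change was -0.30 ± 0.11 with siRNA 2600 (limma unadjusted p = 0.0196, adjusted p = 0.228), -0.04 ± 0.11 with siRNA 3488 and 0.27 ± 0.12 between siRNA 3488 and siRNA 2600 (limma adjusted p = 0.209).

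The other Sesn1 probe set, 1395809_at, read 226.4 and 188.7 for siRNA 3488, 129.4 and 166.9 for siRNA 2600, and 150.6, 161 and 171.2 in the controls. Here the siRNA 3488 arrays were the highest and did not overlap the controls, by a log2 change of 0.36 ± 0.19 that did not pass (limma adjusted p = 0.213), and the difference between siRNA 3488 and siRNA 2600 was 0.49 ± 0.20 (limma adjusted p = 0.179). Both probe sets were thus higher with siRNA 3488 than with siRNA 2600 without passing the test, but they placed the controls differently: beside siRNA 3488 in one and beside siRNA 2600 in the other. They correlated at a Pearson r of 0.51 over the 7 arrays.

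Phlda3 encodes a p53-induced inhibitor of the survival kinase Akt. Its signal was 721.4 and 666.1 in siRNA 3488 cultures, 982.4 and 722.5 in siRNA 2600 cultures, and 886.2, 804.8 and 840 in scrambled control cultures. Both siRNA 3488 arrays were below all the controls, and the siRNA 2600 arrays fell on either side of them. The log2 change with siRNA 3488 was -0.28 ± 0.12 (95% interval -0.55 to -0.01, limma unadjusted p = 0.0428, adjusted p = 0.142). It was 0.00 ± 0.12 with siRNA 2600 and -0.28 ± 0.13 between siRNA 3488 and siRNA 2600 (limma adjusted p = 0.235). This was the only one of the 11 probe sets to pass under any alternative. With the arrays of the compared groups alone the adjusted limma p for siRNA 3488 against the control was 0.0409. Without siRNA 2600 replicate 1 or replicate 2 in the fit it was 0.0414 or 0.0391, and without replicate 2 the difference between siRNA 3488 and siRNA 2600 was -0.50 with an adjusted limma p of 0.0282.

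The cell death genes gave no call either. Bbc3 encodes Puma, a p53-induced protein that triggers mitochondrial cell death. Its signal was 893.3 and 960.4 in siRNA 3488 cultures, 935.5 and 1024 in siRNA 2600 cultures, and 858.4, 849.9 and 913.1 in scrambled control cultures. All 4 siRNA arrays were above the control mean, and those of siRNA 2600 were above every control. It averaged 953.3 ± 54.7 (SD, n = 4) with both siRNAs, against 873.8 ± 34.3 (SD, n = 3) in the controls. The log2 change was 0.12 ± 0.08 with both siRNAs (limma adjusted p = 0.404, 95% interval -0.04 to 0.29), 0.08 ± 0.08 with siRNA 3488 and 0.16 ± 0.08 with siRNA 2600 (limma adjusted p = 0.383). An exact permutation test of the signals with both siRNAs gave a two-sided p of 0.114, where 35 splits allow no p under 0.0571.

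Bax encodes the pore-forming protein that Puma and its relatives set free. The probe set 1369122_at, annotated to both LOC681314 and Bax, read 854 and 946.2 in siRNA 3488 cultures, 929.8 and 916.8 in siRNA 2600 cultures, and 876, 899.8 and 926.2 in scrambled control cultures. The groups overlapped, and both siRNAs together gave a log2 change of 0.02 ± 0.07 (limma adjusted p = 0.923, 95% interval -0.14 to 0.18). Because of the shared annotation this value is not counted among the 11.

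Fas encodes a death receptor of the cell surface. Its tested probe set, 1384842_s_at, was dim and read 77.05 and 113.4 for siRNA 3488, 74.41 and 105.0 for siRNA 2600, and 84.13, 91.11 and 64.73 in the controls. Replicates of 1 siRNA lay farther apart than the group means, and the log2 change with both siRNAs was 0.20 ± 0.25 (limma adjusted p = 0.697), with the widest interval of the 11, 0.788-fold to 1.67-fold. The other Fas probe sets were under the filter and take their values from the fit over all probe sets. For 1397221_s_at the signals were 3.826 and 4.612 for siRNA 3488, 10.09 and 8.039 for siRNA 2600, and 29.62, 45.64 and 15.71 in the controls. All siRNA arrays were below all controls, with a log2 change of -2.17 ± 0.64 with both siRNAs (limma adjusted p = 0.224) and -2.72 ± 0.72 with siRNA 3488 (limma adjusted p = 0.0549), at signals near the low end of the scale. An exact permutation test with both siRNAs gave a two-sided p of 0.0571, the smallest the design allows. The third, 1369900_at, stayed between 1.111 and 4.174 on all arrays.

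Trp53inp1 encodes a stress-induced nuclear protein that aids p53 in cell death and autophagy. Its signal was 140 and 110.4 in siRNA 3488 cultures, 120 and 177.4 in siRNA 2600 cultures, and 137, 151.8 and 150.8 in scrambled control cultures. The siRNA 2600 replicates lay below and above all controls. The log2 change was -0.12 ± 0.19 with both siRNAs (limma adjusted p = 0.775), -0.24 ± 0.22 with siRNA 3488 and 0.00 ± 0.22 with siRNA 2600.

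Taken as an average over the 11 probe sets, the p53 target genes differed from the control mean by -0.03 and 0.04 (log2) in siRNA 3488 cultures, -0.09 and 0.08 in siRNA 2600 cultures, and 0.00, 0.03 and -0.02 in the controls. The arrays of each siRNA thus lay on both sides of 0. With siRNA 3488 the changes ran from -0.28 (Phlda3) to 0.36 (Sesn1 1395809_at), and with siRNA 2600 from -0.30 (Sesn1 1372248_at) to 0.16 (Bbc3).

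The genes most like Mdm2 1383288_at over the 7 arrays, of 14056 probe sets compared, were Gmds (Pearson r = 0.979, Spearman rho = 0.964), Gabarap (0.973 and 0.929) and Mecom (0.973 and 1.0). Those most like Ccng1, of 14058, were Dera (Pearson r = 0.977, Spearman rho = 0.929), Copz2 (0.962 and 0.929) and Fkbp10 (0.961 and 1.0). None of these is a p53 target gene listed here, and with so many probe sets and 7 points that share their scaling the values are descriptions only.

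The regulators of p53 were read from a list of 19 genes, of which 18 had a probe set of their own and 27 probe sets were tested. With both siRNAs 0 were called higher (0.102% of all tested probe sets) and 0 lower (0.0430%), while 4 of 27 had an unadjusted limma p under 0.05 (17.8% of all). With siRNA 3488, 2 were called higher (6.89% of all) and 1 lower (8.74%). With siRNA 2600 none was called higher (0.548% of all) or lower (0.483%), with 3 at an unadjusted limma p under 0.05 (15.2% of all). Between siRNA 3488 and siRNA 2600, 1 was higher (2.84% of all) and 0 lower (3.17%). The median log2 change was -0.04 with both siRNAs and -0.04 with siRNA 3488, beside -0.05 and -0.06 over all tested probe sets.

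With both siRNAs the arrays did not overlap the controls for 3 of the 27 regulator probe sets, beside 17.7% of all tested. Mdm4, the partner of Mdm2 that holds p53 inactive, was below every control on each siRNA array in both of its probe sets, without passing the test. For 1379259_at the signals were 1242 and 1118 for siRNA 3488, 1144 and 1085 for siRNA 2600, and 1296, 1357 and 1378 in the controls. The log2 change with both siRNAs was -0.23 ± 0.07 (limma adjusted p = 0.158). For 1382417_at they were 364.1 and 403.9 for siRNA 3488, 336.2 and 370.6 for siRNA 2600, and 478, 479.4 and 428.9 in the controls, with a log2 change of -0.33 ± 0.10 (limma adjusted p = 0.161). The third, chosen here after its values were seen, was Atr 1385254_at, a kinase of the replication checkpoint that acts on p53. It read 140.7 and 166.8 for siRNA 3488, 173.9 and 155.3 for siRNA 2600, and 103.7, 106.8 and 115.1 in the controls, above every control on each siRNA array, with a log2 change of 0.55 ± 0.16 that did not pass (limma adjusted p = 0.148).

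Cop1, a further ubiquitin ligase for p53, fell with siRNA 3488 in 1 of 3 tested probe sets, with 1324 and 1238 against 1748, 1728 and 1783 in the controls, a log2 change of -0.45 ± 0.09 (limma adjusted p = 0.0109). Its probe set 1375172_at had a log2 change of 0.26 and 1375145_at one of -0.29, neither passing. Rpl5 and Rpl11, ribosomal proteins that can bind Mdm2, rose with siRNA 3488 by 0.47 ± 0.10 (limma adjusted p = 0.0125) and 0.43 ± 0.08 (limma adjusted p = 0.00986) on the log2 scale. Their signals, 24320 and 28650 for Rpl5 with siRNA 3488 against 17150, 19760 and 20640 in the controls, are at the top of the scale, and after quantile normalization the log2 changes were 0.008 and -0.038. Without siRNA 3488 replicate 2 the adjusted limma p was 0.0915 for Cop1, 0.1 for Rpl5 and 0.0611 for Rpl11, and for Rpl5 it was 0.0502 without scrambled control replicate 1. Fitted without an intensity trend of the prior variance, limma called none of the 3, with adjusted p-values of 0.0621 for Cop1, 0.0705 for Rpl5 and 0.0633 for Rpl11.

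Among the arrest and signalling targets outside the 9 genes, Plk2 and Tob1 fell with siRNA 3488. Of 14 genes listed, 13 had a probe set of their own, and 12 probe sets were tested. With siRNA 3488, 0 were called higher and 3 lower, beside 6.89% and 8.74% of all tested probe sets. Among the 3 was the dim Ier5 1389882_at, which passed the filter through the siRNA 2600 and control arrays. The median log2 change of the 12 was -0.25, beside -0.06 over all. None was called with both siRNAs, where 0 of 12 had an unadjusted limma p under 0.05 (17.8% of all), or with siRNA 2600, where 2 of 12 did (15.2% of all). The median difference of the 12 from the control mean was -0.23 and -0.18 in siRNA 3488 cultures. It was -0.01 and 0.00 in siRNA 2600 cultures, and 0.02, 0.01 and -0.05 in the controls. The mean difference was -0.42 and -0.24, 0.01 and 0.01, and 0.04, 0.03 and -0.07 in the same order. That mean with siRNA 3488 is pulled down by Ier5 1389882_at, the lowest of the 12 on both arrays.

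Cdkn1a encodes p21, the cyclin-dependent kinase inhibitor through which p53 arrests the cell cycle. Its probe set 1388674_at read 1367 and 1382 in siRNA 3488 cultures, 1092 and 1120 in siRNA 2600 cultures, and 1251, 1201 and 1246 in scrambled control cultures. The 3 groups did not overlap, with siRNA 3488 above and siRNA 2600 below the controls. Neither difference from the controls passed, at a log2 change of 0.16 ± 0.07 with siRNA 3488 (limma adjusted p = 0.138) and -0.16 ± 0.07 with siRNA 2600 (limma adjusted p = 0.306). The difference between siRNA 3488 and siRNA 2600 passed at 0.31 ± 0.07 (limma adjusted p = 0.038), and it was lost when any 1 array other than siRNA 2600 replicate 2 was left out (limma adjusted p 0.0665 to 0.15). It was lost as well without an intensity trend (limma adjusted p = 0.117) and with the arrays of these siRNAs alone (0.153). Median centring and the fit without a filter also ended this call. The other probe set, 1387391_at, had log2 changes of 0.07 ± 0.17 with siRNA 3488 and -0.10 ± 0.17 with siRNA 2600 and no call. Gadd45a, with the same order of the 3 groups by mean, did not pass.

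Plk2, a p53-induced kinase of the centriole cycle, fell with siRNA 3488, with signals of 1197 and 1014 against 1600, 1640 and 1515 in the controls, a log2 change of -0.52 ± 0.09 (limma adjusted p = 0.0069). It read 1723 and 1519 with siRNA 2600, and the difference between siRNA 3488 and siRNA 2600 was -0.55 ± 0.10 (limma adjusted p = 0.017). Tob1, an antiproliferative protein, fell to 2724 and 2842 with siRNA 3488, against 3390, 3423 and 3284 in the controls (log2 change -0.27 ± 0.07, limma adjusted p = 0.0236). Without siRNA 3488 replicate 2 the Plk2 calls had adjusted limma p-values of 0.0649 and 0.098, and the second was 0.088 without siRNA 2600 replicate 1. The Tob1 call was lost without any single siRNA 3488 or control array (limma adjusted p 0.0519 to 0.088). Without an intensity trend the adjusted limma p-values were 0.0535 and 0.0982 for Plk2 and 0.0938 for Tob1, and with the arrays of the siRNAs alone the second Plk2 call had 0.0957.

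The probe sets of Ier5, a stress response gene, went opposite ways. Ier5 1389882_at read 13.39 and 68.91 with siRNA 3488 against 129, 115.9 and 104.3 in the controls and was called lower (limma adjusted p = 0.0387). It was dim and passed the filter through the siRNA 2600 and control arrays, so the size of the fall is not given. The other tested probe set, 1389355_at, read 1862 and 1903 with siRNA 3488, above 1787, 1732 and 1644 in the controls, a log2 change of 0.13 ± 0.07 without a call (limma adjusted p = 0.207). The lower call was lost without siRNA 3488 replicate 1 (limma adjusted p = 0.115), without single control arrays (0.077 to 0.119) and without an intensity trend (0.104). Dusp5, a phosphatase of the MAP kinase ERK, was called between siRNA 3488 and siRNA 2600 at -0.79 ± 0.17 (limma adjusted p = 0.0303). Its signals were 2074 and 1307 with siRNA 3488, and 3096 and 2630 with siRNA 2600. Of the leave-outs, all but that of siRNA 2600 replicate 2 and siRNA 3488 replicate 1 ended the Dusp5 call (limma adjusted p 0.0541 to 0.147), and without siRNA 3488 replicate 2 the difference was -0.46. The Dusp5 call was lost without an intensity trend (limma adjusted p = 0.131) and with the arrays of these siRNAs alone (0.117).

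**Figure D3:**
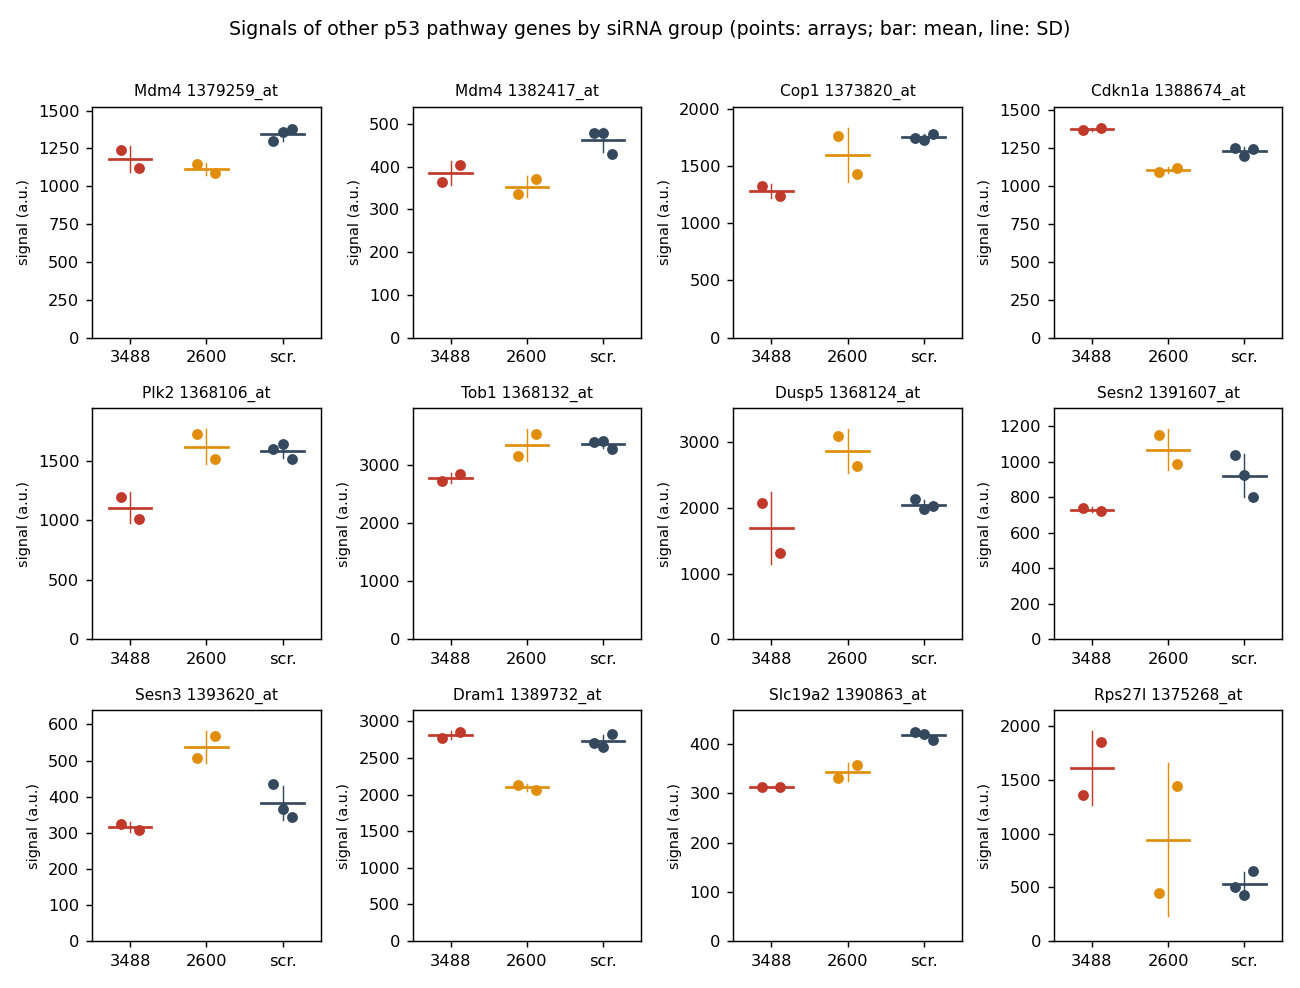
Signal in arbitrary units (vertical axes, from 0) of 12 probe sets of other p53 pathway genes on each array, by group: siRNA 3488, siRNA 2600 and scrambled control; points are arrays, horizontal bars means and vertical lines SD. Cdkn1a 1388674_at is 1367 and 1382 with siRNA 3488 and 1092 and 1120 with siRNA 2600, on either side of the controls, while both Mdm4 probe sets are lower on all siRNA arrays than on the control arrays.

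Other p53 targets of the cell death class gave no call in any comparison, though 1 was called under some alternatives. Of 14 genes, 10 had a probe set of their own and 12 probe sets were tested by limma. At an unadjusted limma p under 0.05 there were 0 of 12 with both siRNAs (17.8% of all tested probe sets), 1 with siRNA 3488 (31.9%), 0 with siRNA 2600 (15.2%) and 0 between the siRNAs (23.7%). The median log2 change was 0.05 with both siRNAs, 0.00 with siRNA 3488 and 0.08 with siRNA 2600, beside -0.05, -0.06 and -0.02 over all. With siRNA 3488, 1 of the 12 was called higher after quantile normalization, after median centring and with the arrays of siRNA 3488 and the control alone.

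Of the repair and metabolism targets, single genes were called in either direction. Of 17 genes, 14 had a probe set of their own and 15 probe sets were tested. With both siRNAs 0 were called (0.145% of all tested probe sets), and 3 of 15 had an unadjusted limma p under 0.05 (17.8% of all). With siRNA 3488, 2 were called higher (6.89% of all) and 1 lower (8.74%). With siRNA 2600 it was 0 higher (0.548%) and 1 lower (0.483%), and between the siRNAs 2 higher (2.84%) and 2 lower (3.17%). The median log2 change was -0.07 with both siRNAs, -0.19 with siRNA 3488 and -0.05 with siRNA 2600, beside -0.05, -0.06 and -0.02 over all.

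Sesn2 and Sesn3, the relatives of Sesn1, were lower with siRNA 3488 than with siRNA 2600, the opposite of the order of the Sesn1 means. Sesn2 1391607_at read 740.8 and 720.6 for siRNA 3488, 1148 and 984.9 for siRNA 2600, and 1038, 927.6 and 799.1 in the controls, and the difference between siRNA 3488 and siRNA 2600 was -0.54 ± 0.13 (limma adjusted p = 0.0369). Sesn3 1393620_at read 325.2 and 306.1 for siRNA 3488, 507.1 and 568.7 for siRNA 2600, and 434, 366.9 and 344.3 in the controls, a difference of -0.77 ± 0.14 (limma adjusted p = 0.0176). For Sesn3 the call was lost without siRNA 3488 replicate 2 (limma adjusted p = 0.096) or siRNA 2600 replicate 1 (0.0576). For Sesn2 it was lost without siRNA 3488 replicate 1 (0.0776) or replicate 2 (0.158), siRNA 2600 replicate 1 (0.176) or scrambled control replicate 2 (0.0689), each an adjusted limma p. The other tested Sesn2 probe set, 1396901_at, had a difference of -0.27 without a call. Without an intensity trend the adjusted limma p was 0.129 for Sesn2 and 0.0777 for Sesn3, and with the arrays of these siRNAs alone 0.0957 and 0.0793.

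Dram1, a lysosomal membrane protein of autophagy, fell with siRNA 2600 to 2132 and 2067, against 2707, 2654 and 2828 in the controls (log2 change -0.38 ± 0.06, limma adjusted p = 0.0245). It read 2773 and 2852 with siRNA 3488, 0.42 ± 0.07 above siRNA 2600 (limma adjusted p = 0.0132). Leaving out siRNA 2600 replicate 2 or single control arrays gave adjusted limma p-values of 0.0818 to 0.112 for the fall, and without siRNA 3488 replicate 2 the difference between the siRNAs had 0.0699. Without an intensity trend Dram1 had adjusted limma p-values of 0.146 for the fall and 0.0833 for the difference, which had 0.0941 with the arrays of these siRNAs alone. Gpx1, a glutathione peroxidase, rose with siRNA 3488 by 0.50 ± 0.08 (limma adjusted p = 0.00446), with 13600 and 15400 against 9540, 10560 and 10620 in the controls, and by 0.12 after quantile normalization without passing (limma adjusted p = 0.0691). The adjusted limma p of Gpx1 was 0.0505 without an intensity trend.

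Rps27l, a ribosomal protein paralog induced by p53, rose with siRNA 3488 to 1364 and 1854, against 503.3, 432.4 and 656 in the controls, a log2 change of 1.61 ± 0.38 (limma adjusted p = 0.0213). With siRNA 2600 its replicates read 442.4 and 1446, the first among the controls and the second among the siRNA 3488 arrays, and the change of 0.61 ± 0.38 did not pass (limma adjusted p = 0.493). Without siRNA 3488 replicate 2 the adjusted limma p of the Rps27l rise was 0.163, and without scrambled control replicate 1 or 2 it was 0.0718 or 0.0682, and without an intensity trend 0.0911. Slc19a2, a thiamine transporter, fell with siRNA 3488 to 313.7 and 312.7, against 425.6, 420.6 and 409.3 in the controls (log2 change -0.42 ± 0.11, limma adjusted p = 0.0273). Leaving out any single siRNA 3488 or control array gave Slc19a2 an adjusted limma p of 0.063 to 0.12.

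Among genes that p53 is known to lower, through p21 and the DREAM repressor complex, Kif20a, Mki67, Plk1 and Ccnb1 rose with each siRNA. Of 20 such cell cycle genes, 19 had a probe set of their own and 26 probe sets were tested. With both siRNAs the log2 changes of 24 of the 26 were above 0 (41.2% of all). The exceptions were among the 5 probe sets of Cdc20. Its 1387895_s_at averaged 1407 with both siRNAs against 1660 in the controls, and its 1394113_at 68.24 against 84.68. With both siRNAs 4 of the 26 were called higher (0.102% of all tested probe sets) and 0 lower. With siRNA 3488, 19 were called higher (6.89% of all), covering 17 genes, and 0 lower. With siRNA 2600, 5 were called higher (0.548% of all) and 0 lower, and between siRNA 3488 and siRNA 2600 4 were higher (2.84% of all) and 0 lower. The median log2 change was 0.42 with both siRNAs, 0.58 with siRNA 3488 and 0.33 with siRNA 2600, beside -0.05, -0.06 and -0.02 over all tested probe sets. The count with siRNA 3488 was 9 without replicate 2 of that siRNA, that with siRNA 2600 was 1 without any single control array, and that with both siRNAs was 11 without siRNA 2600 replicate 1. In a fit with no intensity trend 11 were called higher with siRNA 3488 and 0 in the other comparisons. The direction in which the list moved was known from earlier work on these data when it was drawn up.

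Kif20a, a kinesin of cytokinesis, read 2194 and 2403 in siRNA 3488 cultures, 1772 and 2025 in siRNA 2600 cultures, and 1041, 1142 and 1108 in scrambled control cultures. It rose by 0.93 ± 0.10 with both siRNAs (limma adjusted p = 0.0287). Mki67, the proliferation marker, rose by 0.61 ± 0.09, Plk1, a mitotic kinase, by 0.69 ± 0.10 and Ccnb1 1370346_at, cyclin B1, by 0.54 ± 0.08 (limma adjusted p = 0.0472 for each). These 4 calls were lost without any single control array (limma adjusted p 0.0991 to 0.307) or without siRNA 3488 replicate 1 (0.0848 to 0.104). The calls of Mki67, Plk1 and Ccnb1 were also lost without siRNA 3488 replicate 2 (limma adjusted p = 0.0839 for each) and that of Ccnb1 without siRNA 2600 replicate 2 (0.0812), although the log2 changes stayed between 0.49 and 0.96. Each of the 4 had an adjusted limma p of 0.147 without an intensity trend. E2f1, a transcription factor of S phase entry, rose with siRNA 3488 by 0.80 ± 0.18 (limma adjusted p = 0.0168), and its change with siRNA 2600 was -0.24 ± 0.18 without passing. Without siRNA 3488 replicate 2 the E2f1 change was 0.56 with an adjusted limma p of 0.156, and without scrambled control replicate 1 or 3 the adjusted limma p was 0.067 or 0.0516. It was 0.0557 without an intensity trend.

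Sums of the fibroblast, epithelial and leukocyte markers were highest in siRNA 3488 cultures, while the endothelial sums overlapped between groups. The fibroblast markers summed to 29453 to 33474 in those cultures, 23715 to 25213 in siRNA 2600 cultures and 23086 to 23947 in the controls. Most of that sum was Col3a1, at 24440 and 28460 with siRNA 3488. Of the 9 genes, 3 probe sets of Col1a1 and Col3a1 were called higher with siRNA 3488, Pdpn had a log2 change of -0.16 without a call, and Pdgfra, Thy1, Dcn and Lum were under the filter. With siRNA 2600 none was called. Of 7 tested probe sets, 4 did not overlap the controls with siRNA 3488 (50.3% of all) and 5 with siRNA 2600 (34.0%), in either direction. Col1a2 1370155_at averaged 381.6 with siRNA 3488, 455.5 with siRNA 2600 and 310.1 in the controls, and Pdgfrb 1370642_s_at 152.1, 150.5 and 147.9. The epithelial markers summed to 6771 to 7476 in siRNA 3488 cultures, 6094 to 6230 in siRNA 2600 cultures and 5958 to 6535 in the controls, and neither Krt8 (log2 change 0.18) nor Krt19 (0.51) was called. The leukocyte markers summed to 433 to 434, 255 to 309 and 275 to 282 for siRNA 3488, siRNA 2600 and the controls, with Cd68, a lysosomal protein of macrophages, the only one to pass the filter. Cd68 was called higher with siRNA 3488, by 0.67 against the controls and 0.81 against siRNA 2600 on the log2 scale. The endothelial markers summed to 268 to 338, 218 to 320 and 304 to 319 for siRNA 3488, siRNA 2600 and the controls. The beta-actin 3′/5′ signal ratio, a measure of RNA and labelling quality, was 1.96 and 1.94 for siRNA 3488, 1.83 and 1.81 for siRNA 2600, and 1.74 to 1.79 in the controls. Their part in the results with siRNA 3488 was not tested.

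**Figure D4:**
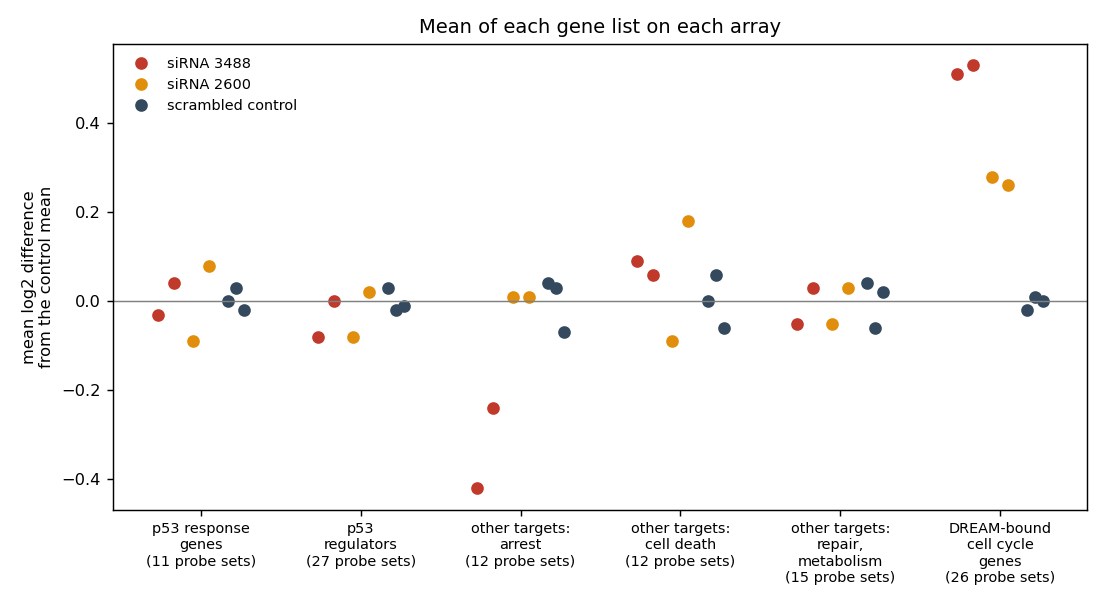
Mean log2 difference from the control mean (vertical axis) of the tested probe sets of each gene list on each array. Points are single arrays of siRNA 3488, siRNA 2600 and the scrambled control, and no error is drawn. The mean of the arrest targets includes the dim Ier5 1389882_at. The 11 probe sets of the p53 target genes lie between -0.09 and 0.08 on all arrays, while the cell cycle genes lowered through the DREAM complex are at 0.51 and 0.53 with siRNA 3488, 0.28 and 0.26 with siRNA 2600 and -0.02 to 0.01 in the controls.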

How the data were processed

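The 7 cultures gave 1 array each, and the sample titles gave the groups. The authors' deposited values are intensity values, linear signals in arbitrary units for each probe set. GCOS 1.4 is the tool named, per the submitters' processing notes; its background, scaling and detection settings are not stated there. Probe sets were named from a platform annotation, and only those with 1 gene symbol were used. Each column of the table was used.

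The signals were floored at 1 and turned into log2. Without the 57 control probe sets, the brightest 60% by mean log2 signal (at least 6.092) entered the tests, done in limma 3.58.1 under R 4.3.3 (lmFit, eBayes, trended prior) and adjusted after Benjamini-Hochberg over all 18625. For both siRNAs against the control 2 groups were fitted. All other comparisons used 3 groups and the 7 arrays, so both single-siRNA comparisons share the 3 control arrays. The fit was tested on simulated data.

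All probe sets of the 9 genes are given. Of the other lists, Mdm4 and Cdkn1a are always named, as is each gene called in a comparison, at most the 6 of lowest p per list and comparison. Atr was added after its values were seen. A gene of these lists is not reported here. The genes and lists were chosen with earlier results of these data known. Alternatives were quantile normalization, median centring, cyclic loess, no filter, the upper 40%, an offset of 32, no intensity trend, the replicate number as a block, other choices of arrays to fit and single arrays left out.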

Additional observations from a re-analysis of the deposited data

Results flagged for a closer look

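None of the 9 p53 target genes differed between siRNA 3488 and siRNA 2600 by the test. Within the single groups of 2 and 3 arrays no array was tested as an outlier. With the 4 siRNA arrays taken as 1 group, which mixes both siRNAs, no p53 target probe set had an array past Dixon's critical value. Other genes of the p53 lists did differ, by limma with adjustment over all tested probe sets. As log2 differences, siRNA 3488 minus siRNA 2600, Cdkn1a 1388674_at was higher by 0.31 (limma adjusted p = 0.038), Dram1 by 0.42 (0.0132), Gpx1 by 0.43 (0.0207) and Rpl11 by 0.36 (0.044). Of the cell cycle genes lowered through the DREAM complex, Ccna2 was higher with siRNA 3488 by 0.43 (limma adjusted p = 0.0408), Ccnb2 by 0.31 (0.0354), E2f1 by 1.04 (0.0205) and Top2a 1388650_at by 0.43 (0.0144). Lower with siRNA 3488 were Plk2 at -0.55 (limma adjusted p = 0.017), Dusp5 at -0.79 (0.0303), Sesn2 at -0.54 (0.0369) and Sesn3 at -0.77 (0.0176). Between these siRNAs 1119 probe sets were called in all, 6.01% of those tested. The 12 calls named here were all lost without an intensity trend and all lost with the arrays of these siRNAs alone. After quantile normalization the Gpx1 difference was 0.15 without a call (limma adjusted p = 0.0759).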

How the results depend on the processing

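The count of p53 target probe sets called stayed at 0 in every comparison and setting, except for Phlda3. With the arrays of the compared groups alone the count for siRNA 3488 against the control was 1 (Phlda3, log2 change -0.28, limma adjusted p = 0.0409), and leaving out single arrays gave 0 to 1 there and 0 to 1 between siRNA 3488 and siRNA 2600. With the replicate block the count was 0 in all comparisons. Same-numbered arrays deviated together at correlations of -0.0483 to 0.1626, not all over 0.1, and the numbers were not taken to pair the cultures. In a group of 2 arrays the deviations mirror each other, so this check cannot settle whether the cultures were paired. Of 308 changes of the 11 probe sets with 1 array left out, 277 kept their direction and their side of the threshold, 28 crossed 0 without a call and 3 passed. Of 384 under other settings these were 364, 19 and 1.

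Counts over all probe sets moved more. With both siRNAs 27 were called, against 50 after quantile normalization, 66 after median centring, 0 without a filter, 0 without an intensity trend, 0 with the block and 1378 for the mean of both effects in the fit of 3 groups. The list lowered through the DREAM complex gave 4 with both siRNAs, 0 without a filter, without a trend or with the block, and 16 for the mean of both effects. Without an intensity trend 591 were called with siRNA 3488 (2911 as reported), 0 with siRNA 2600 (192) and 5 between siRNA 3488 and siRNA 2600 (1119). For siRNA 3488 quantile normalization gave 1839. For siRNA 2600, no filter gave 91 and the block 67. Between the siRNAs, quantile normalization gave 574, median centring 727, cyclic loess 694, no filter 459 and the arrays of those groups alone 29. With 1 array left out the ranges were 0 to 1316 with both, 472 to 3621 with siRNA 3488, 25 to 235 with siRNA 2600 and 103 to 1564 between them.

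Rpl11 turned its direction under quantile normalization, at -0.038 for siRNA 3488 against the control and -0.048 against siRNA 2600. Of 924 changes of the other named genes under settings that kept all groups' arrays or changed the fit, 805 kept direction and side of the threshold, 88 lost a call, 16 gained one, 13 crossed 0 without a call and these 2 turned. Without an intensity trend 32 of the 39 calls of these genes were lost, in 21 genes, among them Cop1, Rpl5, Rpl11, Plk2, Tob1, Ier5, Gpx1, Rps27l and Dram1. It left 0 of 3 calls of regulators, 0 of 3 of arrest targets and 1 of 3 of repair targets (Slc19a2) with siRNA 3488. No filter ended 12, the arrays of the compared groups alone 12 of 35, the replicate block 11, quantile normalization 9, median centring 8 and cyclic loess 6. Median centring ended those of Cop1, Tob1 and Slc19a2 with siRNA 3488 and of Dram1 with siRNA 2600, and quantile normalization and cyclic loess those of Ier5, Slc19a2 and Rpl5. The cause of these shifts was not tested. Signals near the low end, as in 2 Fas probe sets, limit what these arrays can show.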
